A study of Mus musculus with 8 samples.

Results

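Intermediate filament genes and the gene of their main crosslinker, plectin, were examined in bulk RNA-seq of dystrophic and healthy muscle. The set held 7 genes, *Des*, *Vim*, *Nes*, *Synm*, *Sync*, *Lmna* and *Plec*, chosen by gene symbol out of 55401 genes in the deposited table. All 7 passed the filter on low values, a mean of 10 or more normalized counts over the 8 muscles, and were tested. The muscles were whole tibialis anterior (TA) muscles of male C57/Bl6 mice at 6 mo of age. 4 came from WT mice and 4 from mdx5cv mice, a model of Duchenne muscular dystrophy (DMD) on the same strain background, which carries a mutation in *Dmd* in all cells. RNA was isolated with Trizol and sequenced as stranded total RNA libraries. Nothing in the labels says whether muscles of 1 group came from separate mice or whether groups were handled together, so p-values measure only the spread between these samples.

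Intermediate filaments are rope-like polymers of coiled-coil proteins that give cells tensile strength. In a mature muscle fiber, desmin filaments ring the Z-discs and tie neighbouring myofibrils to each other, to nuclei and to the costameres, the adhesion sites under the sarcolemma where dystrophin also sits. Plectin crosslinks these filaments to Z-discs, costameres, mitochondria and the nuclear envelope. Vimentin and nestin are filament proteins of myoblasts and immature fibers, and vimentin is also abundant in fibroblasts, endothelial cells and leukocytes. A-type lamins form the filament mesh inside the nuclear envelope.

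Of the 7 genes, 4 were higher in mdx5cv muscle (*Vim*, *Nes*, *Lmna* and *Sync*), 1 was lower (*Synm*) and 2 did not pass the test (*Des* and *Plec*), with calls made by limma below an adjusted p of 0.05. Among the 13677 genes in that fit, 40.9% passed in either direction, 20.9% as higher and 20.1% as lower. *Vim*, *Nes* and *Lmna* also had a log2 fold change of at least 1, against 13.6% of all genes tested in either direction, 10.3% higher and 3.27% lower. The values of the groups did not overlap for 5 of the 7, against 40.1% of all genes tested, and overlapped for *Des* and *Plec*. The 2 members with no call were those with the most normalized counts, and the largest rise was that of *Vim*, 4.23-fold as a ratio of means.

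The libraries held 13175524 to 14921057 reads. The deposited values are normalized counts, that is, reads divided by a size factor of each muscle. The size factors ran from 0.873 to 0.944 in WT and from 1.06 to 1.25 in mdx5cv, so the scaling bears on genes with small changes. With equal totals in place of the size factors, the median gene went from a log2 fold change of 0.00 to 0.36. *Dmd* itself ran from 6169 to 8155 normalized counts in WT and from 3461 to 4400 in mdx5cv (a change of -0.81 on the log2 scale with a standard error, SE, of 0.12, limma adjusted p = 0.000177), although a count over the whole gene does not show the mutation. The muscle labelled mdx5cv replicate 4 had the highest *Vim*, *Nes* and *Lmna* and the lowest *Synm*, *Sync* and *Plec* of its group, and the fold changes of the members are given with and without it.

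The transcripts of the set shared no long stretch of sequence. Between the longest coding transcripts of any pair of members, the longest run of identical bases was 12 to 18 bases. The longest of all joined *Des* and *Vim*, and the longest coding run between *Des* and the lamin gene is set beside it, since the 3 proteins share the coiled-coil rod of the family. Both are printed in lower case from the GENCODE M21 transcripts, and lie at coding bases 877 to 894 of *Des* and 865 to 882 of *Vim*, and at coding bases 337 to 351 of *Des* and 109 to 123 of *Lmna*. Coding runs of 15 bases also joined *Plec* with *Nes* and with *Vim*, so a run of that length is not particular to the filament family.
Des and Vim, 18 identical bases: gaatggtacaagtccaag
Des and Lmna, 15 identical bases: gagctcaatgaccgc

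Since members moved in different ways, the start regions of 4 of them are shown: *Nes* and *Sync*, which were higher in mdx5cv, *Synm*, which was lower, and *Des*, which was not called. Each is the 250 bases before the RefSeq start (GRCm38.p6), 5′ to 3′ on the strand of the gene. Capitals mark matches on either strand to the E-box letters CANNTG, which myogenic factors of the MyoD family can bind, the GC box GGGCGG and the letters TATAA.
Nes, chr3:87970843-87971092, plus strand: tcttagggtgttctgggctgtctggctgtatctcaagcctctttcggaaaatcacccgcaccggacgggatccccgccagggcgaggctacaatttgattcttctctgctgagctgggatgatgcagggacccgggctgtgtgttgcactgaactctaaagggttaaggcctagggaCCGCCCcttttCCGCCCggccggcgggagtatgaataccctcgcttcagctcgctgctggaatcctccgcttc
Sync, chr4:129287371-129287620, plus strand: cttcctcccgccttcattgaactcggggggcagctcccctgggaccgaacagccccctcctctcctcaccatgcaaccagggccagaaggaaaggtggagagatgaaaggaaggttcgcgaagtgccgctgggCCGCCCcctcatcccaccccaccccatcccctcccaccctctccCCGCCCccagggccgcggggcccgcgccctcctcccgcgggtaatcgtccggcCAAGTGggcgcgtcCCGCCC
Synm, chr7:67759743-67759992, minus strand: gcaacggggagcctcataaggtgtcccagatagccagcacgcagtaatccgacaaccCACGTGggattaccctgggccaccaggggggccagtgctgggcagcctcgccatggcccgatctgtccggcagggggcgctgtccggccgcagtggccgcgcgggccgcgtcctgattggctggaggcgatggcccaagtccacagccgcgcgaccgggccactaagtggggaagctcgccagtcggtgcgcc
Des, chr1:75360042-75360291, plus strand: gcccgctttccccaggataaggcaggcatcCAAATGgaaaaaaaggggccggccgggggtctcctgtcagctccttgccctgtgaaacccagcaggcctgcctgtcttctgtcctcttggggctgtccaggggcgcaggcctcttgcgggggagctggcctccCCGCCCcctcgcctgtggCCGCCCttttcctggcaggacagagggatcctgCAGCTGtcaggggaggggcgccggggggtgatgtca
For *Vim* a 30-base stretch (chr2:13574270-13574299, plus strand) is given, because in GENCODE the stretch and the window around it lie within the first exon of a longer *Vim* transcript.
Vim: taacagtgTTATAAaagcagcgcccttggc

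The *Des* window held 2 E-boxes, 220 and 36 bases before the start, and 2 GC boxes. *Synm* held 1 E-box at 193 bases and *Sync* 1 at 20 bases together with 3 GC boxes, while *Nes* held 2 GC boxes and no E-box. The *Vim* stretch held the only TATAA match, with its first base 32 bases before the start, overlapping a match on the other strand. Such letters are common. Of 32851 promoters of the same length, 66.2% held an E-box, 32.7% a GC box and 22.8% TATAA. No member window held the AP-1 letters TGANTCA (6.75% of promoters) or a CArG box (1.47%). Windows were found for 6 of the 7 genes, with 2 starts for *Lmna*. The matches describe letters only.

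*Des* encodes desmin, the main filament protein of the mature fiber, and lies at chr1:75360329-75368579 on the plus strand (GRCm38, GENCODE M21). Its normalized count was 25978, 27803, 28129 and 25473 in the 4 WT muscles and 25606, 28449, 25569 and 26187 in the 4 mdx5cv muscles. The groups overlapped throughout, and the coefficient of variation was 4.90% in WT and 5.14% in mdx5cv. The log2 fold change was -0.02 (SE 0.13, limma adjusted p = 0.909). Its 95% confidence interval, -0.30 to 0.26, corresponds to a fold of 0.813 to 1.19, so changes within that range could not be told from none. Without mdx5cv replicate 4 it was again -0.02 (limma adjusted p = 0.917). Under equal totals the value was 0.34 (limma adjusted p = 0.0245), which is close to the 0.36 by which that scaling moved the median gene.

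*Plec* encodes plectin, the giant linker, and lies at chr15:76170974-76232574 on the minus strand with 22 annotated transcripts, whose different first exons direct plectin to different structures. Counts were per gene and do not separate them. The normalized count was 21148, 18467, 20674 and 22107 in WT and 20992, 22782, 22576 and 20457 in mdx5cv. The groups overlapped, with means of 20599 ± 1541 and 21702 ± 1153 (SD, n = 4). The log2 fold change of 0.08 (SE 0.13, limma adjusted p = 0.657) had a 95% confidence interval of -0.20 to 0.35, a fold of 0.874 to 1.27. It was 0.10 without mdx5cv replicate 4 and 0.44 under equal totals, where it passed the test (limma adjusted p = 0.00736). The gene *Parp10*, on the same strand, overlaps a *Plec* exon and had 68 to 144 reads, against at least 16836 for *Plec*.

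*Synm* encodes synemin, a large filament protein that cannot polymerize alone, copolymerizes with desmin or vimentin and binds dystrobrevin, utrophin and vinculin at costameres. It lies at chr7:67730160-67759742 on the minus strand. Its normalized count was 10052, 8192, 9745 and 9602 in WT and 7789, 7273, 7680.2 and 4959 in mdx5cv. Every mdx5cv muscle lay below every WT muscle, and mdx5cv replicate 4 lay far below the rest. *Synm* fell by 0.46 on the log2 scale (SE 0.15, limma adjusted p = 0.0257), to 0.737-fold of the WT mean. Without mdx5cv replicate 4 it fell by 0.31 (limma adjusted p = 0.0326). The call was lost in 5 of 18 alternative settings: under equal totals (log2 fold change -0.10, adjusted p = 0.533), without a variance trend (adjusted p = 0.0536) and on leaving out WT replicate 1, 3 or 4 (adjusted p = 0.0723, 0.0672 and 0.0512), all from limma. The antisense gene *Ttc23* overlaps a *Synm* exon and had 115 to 185 reads, against at least 6206 for *Synm*.

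*Sync* encodes syncoilin, a filament protein that binds desmin and alpha-dystrobrevin, and lies at chr4:129287617-129308559 on the plus strand. Its normalized count was 394, 211, 387 and 453 in WT and 602, 642, 627 and 538 in mdx5cv. The groups did not overlap, and the spread was unlike that of the other members that rose, with a coefficient of variation of 29.0% in WT and 7.65% in mdx5cv. *Sync* rose by 0.79 on the log2 scale (SE 0.19, limma adjusted p = 0.00535). WT replicate 2 was the low value, and without it the rise was 0.55 (limma adjusted p = 0.00161). Without mdx5cv replicate 4 it was 0.84 (limma adjusted p = 0.00851). *Rbbp4*, on the opposite strand, overlaps a *Sync* exon and had 330 to 678 reads, a number like that of *Sync* itself (192 to 696). The strand setting of the counting is not given in the sources used here, so reads of this pair may be mixed. *Rbbp4* had 362 to 493 normalized counts in WT and 435 to 542 in mdx5cv (log2 fold change 0.29, SE 0.12, limma adjusted p = 0.0743).

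*Vim* encodes vimentin and lies at chr2:13573927-13582826 on the plus strand. Its normalized count was 768, 872, 745 and 896 in WT and 3288, 2773, 2509 and 5299.6 in mdx5cv. The lowest mdx5cv muscle was well above the highest WT muscle. The mean rose from 820.3 ± 74.9 to 3467 ± 1264 (SD, n = 4), which is 2.02 on the log2 scale (SE 0.19, 95% confidence interval 1.62 to 2.42, limma adjusted p = 5.86e-06). The coefficient of variation was 9.13% in WT and 36.4% in mdx5cv, where mdx5cv replicate 4 had the highest value. Without that muscle the log2 fold change was 1.79 (SE 0.11, limma adjusted p = 9.29e-07). *Vim* was called higher under all 18 alternative settings, with a log2 fold change between 1.79 and 2.38.

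*Nes* encodes nestin, a large filament protein of progenitor cells and of regenerating fibers that in healthy adult fibers is kept mainly at neuromuscular and myotendinous junctions. It lies at chr3:87971078-87980451 on the plus strand. Its normalized count was 400.0, 314, 469 and 535 in WT and 1105, 850.0, 1073 and 1525 in mdx5cv. The groups did not overlap, with means of 429 ± 94.8 and 1139 ± 282 (SD, n = 4). *Nes* rose by 1.40 on the log2 scale (SE 0.18, limma adjusted p = 7.18e-05), and by 1.25 without mdx5cv replicate 4 (limma adjusted p = 0.000165).

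*Lmna* encodes lamins A and C, which splicing makes from 1 gene and which these counts do not separate. It lies at chr3:88480147-88509956 on the minus strand. Its normalized count was 499, 591, 517 and 576 in WT and 1202, 1150.0, 1164 and 1672 in mdx5cv. The other 3 mdx5cv muscles lay close together, and mdx5cv replicate 4 was above them. *Lmna* rose by 1.23 on the log2 scale (SE 0.13, limma adjusted p = 1.24e-05) and by 1.10 without that muscle (limma adjusted p = 9.18e-06). *Nes*, *Lmna* and *Sync*, like *Vim*, were called higher under all 18 alternative settings.

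**Figure D1:**
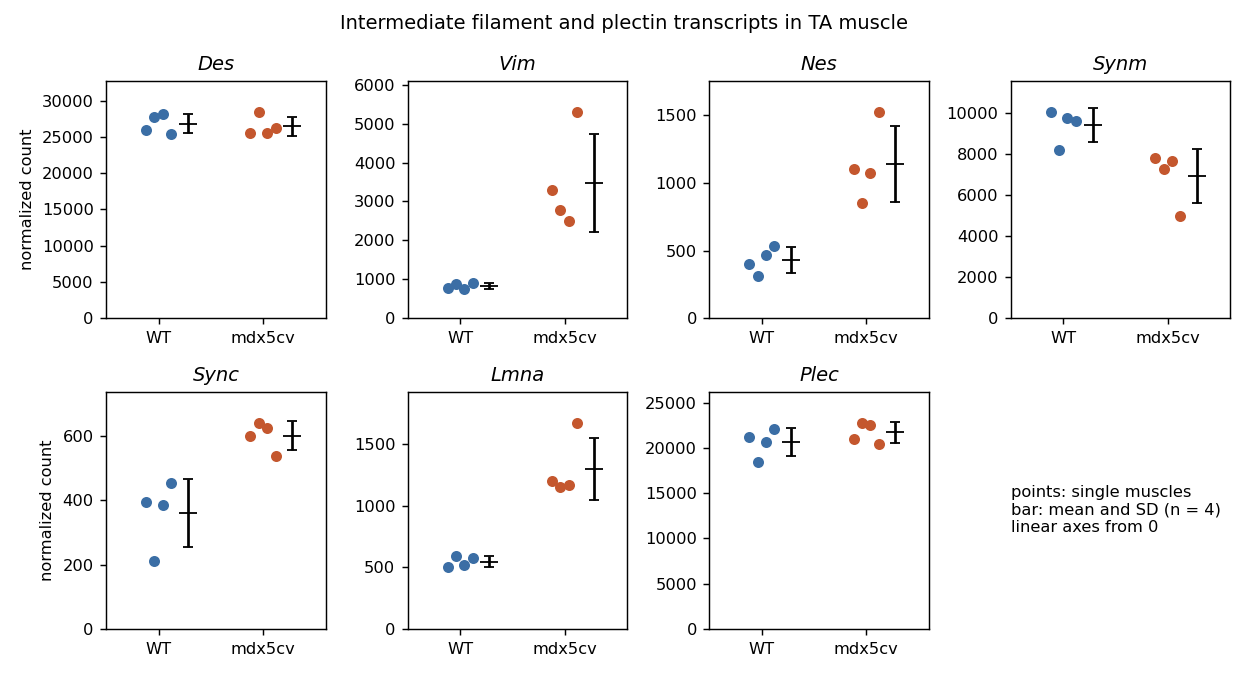
Normalized count of each member (vertical axes, linear, from 0, with a scale of its own for each gene) in the 4 WT and 4 mdx5cv TA muscles. Points are single muscles and bars give the mean and SD (n = 4): the *Vim*, *Nes*, *Lmna* and *Sync* points of mdx5cv lie above all WT points, those of *Synm* below, and those of *Des* and *Plec* overlap.

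To compare genes with each other, normalized counts were divided by the length of the union of annotated exons in kb, since longer transcripts give more reads. In WT, *Des* was far the highest at 7151 ± 351 per kb (SD, n = 4). *Synm* (1185 ± 104) and *Plec* (1137 ± 85.1) came next, and their ranges overlapped. *Vim* (173 ± 15.8) and *Sync* (126 ± 36.6) overlapped in turn, as did *Sync* and *Lmna* (93.5 ± 7.68). *Nes* was the lowest at 66.9 ± 14.8, with its highest muscle (83.4) just under the lowest *Lmna* muscle (85.4).

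In mdx5cv the order per kb changed below *Des*, which stayed at 7047 ± 362. *Plec* came second at 1198 ± 63.6, above all values of *Synm* (873 ± 168). *Vim*, at 731 ± 266, now ranged from 529 to 1117 and overlapped *Synm* (625 to 982). *Lmna* (222 ± 43.0), *Sync* (210.4 ± 16.1) and *Nes* (177 ± 43.9) followed with overlapping ranges. As a share of the 7 levels per kb added up, *Vim* made up 1.74% ± 0.191 in WT and 6.98% ± 2.50 in mdx5cv, *Synm* 11.9% ± 1.06 and 8.37% ± 1.72, and *Des* 72.0% ± 2.41 and 67.3% ± 1.55 (SD, n = 4). With the longest transcript as the length, *Plec* came before *Synm* in WT and *Vim* before *Synm* in mdx5cv. These levels describe RNA of whole muscle, and their order was not tested.

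**Figure D2:**
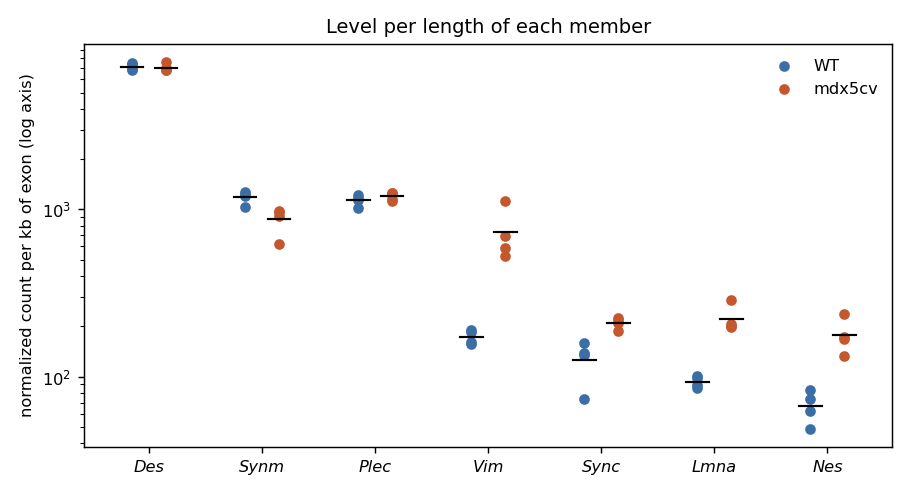
Normalized count per kb of exon (log axis) of the 7 members, ordered by their mean in WT. Points are single muscles and lines the mean of 4: *Des* stays highest in both groups, while *Vim* moves from 173 in WT to 731 in mdx5cv, into the range of *Synm*.

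Ratios of 2 members within a muscle do not depend on how muscles are scaled to each other. All 21 pairs were compared with an exact permutation test of the log2 ratio (two-sided, 70 splits, smallest p 0.0286), with Benjamini-Hochberg adjustment over the pairs. Of these, 14 reached that smallest p (adjusted p = 0.0429), and the groups of the other 7 overlapped. Without mdx5cv replicate 4, 13 pairs passed. The pairs that changed joined a gene that rose with *Des*, *Plec* or *Synm*, or were *Vim* with *Lmna* and *Synm* with *Plec*. The normalized count of *Des* was 32.8 times that of *Vim* in WT (28.4 to 37.7 in single muscles) and 7.96 times in mdx5cv (4.94 to 10.3).

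The largest shift was between *Vim* and *Synm*. Their ratio was 0.0874 in WT (0.0765 to 0.107) and 0.487 in mdx5cv (0.327 to 1.07), a difference of 2.48 on the log2 scale. The smallest shift that passed was between *Synm* and *Plec*. That ratio was 0.456 in WT (0.434 to 0.475) and 0.314 in mdx5cv (0.242 to 0.371), with no overlap, so *Synm* was lower relative to *Plec* whatever the scaling. Relative to *Des* the change of *Synm* did not pass (2.86 *Des* per *Synm* in WT and 3.88 in mdx5cv, p = 0.0857 by the exact permutation test), and the groups overlapped.

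Among the 4 genes that rose, *Vim* rose more than *Lmna* (1.44 to 1.55 *Vim* per *Lmna* in single WT muscles and 2.15 to 3.17 in mdx5cv, a log2 difference of 0.79). The ratios of *Vim* to *Nes* and to *Sync* and of *Nes* to *Sync* missed the threshold (log2 differences 0.62, 1.23 and 0.61, each with adjusted p = 0.0706 by the exact permutation test). *Nes* and *Lmna* differed by 0.17 in their rise (adjusted p = 0.571), and *Sync* and *Lmna* by -0.44 (adjusted p = 0.284), by the same permutation test. With 4 muscles a group, these do not show that the genes rose alike.

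**Figure D3:**
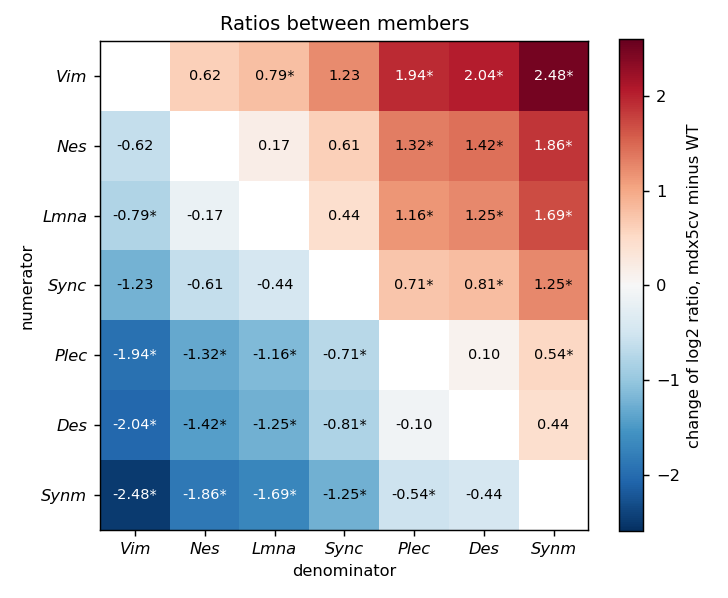
Change of the log2 ratio of the row gene to the column gene, mdx5cv minus WT, for all 21 pairs (each shown in both directions). Stars mark the 14 pairs with an adjusted p of 0.0429 in the exact permutation test: the starred blocks set *Vim*, *Nes*, *Lmna* and *Sync* against *Plec*, *Des* and *Synm*, with 2.48 for *Vim* over *Synm* as the largest value.

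Whole muscle holds many cell types, and in such bulk samples fewer cells of a type and less RNA per cell cannot be told apart. The fast fibers of TA were present in every library. Of 8 mature fast fiber genes, led by *Myh4*, 3 were lower (*Ckm*, *Actn3* and *Tnnt3*) and 5 were not called, with a median log2 fold change of -0.13. Among all genes tested, 20.9% were higher and 20.1% lower. Markers of some cells in which vimentin and nestin are known to be made moved with these members. Markers of endothelial and Schwann cells did not, and those of smooth muscle cells and pericytes were mixed. All 7 regenerating fiber markers were higher, led by *Myh3*. Their summed normalized count was 165.6 to 266 in WT and 2710.3 to 9800.1 in mdx5cv. *Mymx* had no reads in WT, and *Mymk* and *Chrng* averaged 0.265 normalized counts each in WT, against 219 and 115 in mdx5cv. *Mymx*, *Mymk* and *Chrng* passed the filter only through the mdx5cv muscles, so they could only be called higher. All 6 macrophage markers, led by *Lyz2*, were higher (481 to 746 against 3565 to 8548), and so were 5 of 6 fibroblast markers, led by *Col3a1* (6387 to 9689 against 22460.4 to 41026). Among the macrophage markers, *Itgam* averaged 3.88 in WT and 52.4 in mdx5cv, so it too passed the filter only through mdx5cv. The part of these cells in the rises of *Vim*, *Nes* and *Lmna* was not tested.

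Markers of the other cell types were lower or mixed, apart from satellite cells. All 5 endothelial markers were lower, led by *Cdh5* (2513 to 3045 against 1536 to 1968). Schwann cell markers, led by *Mbp*, had 3 of 4 tested genes lower (273 to 551 against 124 to 224), and adipocyte markers, led by *Cfd*, 2 of 4 (98.6 to 497 against 29.6 to 103). *Lep*, an adipocyte marker called lower, averaged 41.6 in WT and 3.67 in mdx5cv, so it passed the filter only through WT. Smooth muscle and pericyte markers, led by *Rgs5*, were mixed, with 3 higher and 2 lower (5955 to 7271 against 4371 to 5076). Among 4 tested satellite cell markers, led by *Cdh15*, 1 was higher, *Pax7*, and the median log2 fold change was 0.48 (281 to 331 against 330.2 to 554 for the list). Beside these counts, 20.9% of all genes tested were higher and 20.1% lower. The lists are short, and none was tested as a set against those shares.

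The mdx5cv muscle at the edge of its group in several members was also at the edge in several marker sums. In mdx5cv replicate 4, *Vim* lay 2.69 above the WT mean on the log2 scale, against 1.62 to 2.01 in the other 3 muscles. *Nes* lay 1.85 above, against 1.01 to 1.39, and *Lmna* 1.62 above, against 1.08 to 1.14. *Synm* was at -0.92 in that muscle and between -0.37 and -0.27 in the others. *Sync*, although it also rose in mdx5cv, was lowest in that muscle, at 0.63 against 0.79 to 0.88. The summed regenerating fiber markers of that muscle lay 5.41 above the WT mean (3.55 to 4.57 in the others) and the macrophage markers 3.79 above (2.53 to 3.01). Its mature fast fiber markers were at -0.65, against values between -0.12 and -0.02. Among the other 3 muscles *Nes*, *Synm* and *Lmna* shared an order, *Sync* and *Plec* shared another, and *Des* and *Vim* each had an order of their own. Some marker sums likewise shared an order with members or with each other, and others did not. With 4 muscles, no correlation was computed.

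**Figure D4:**
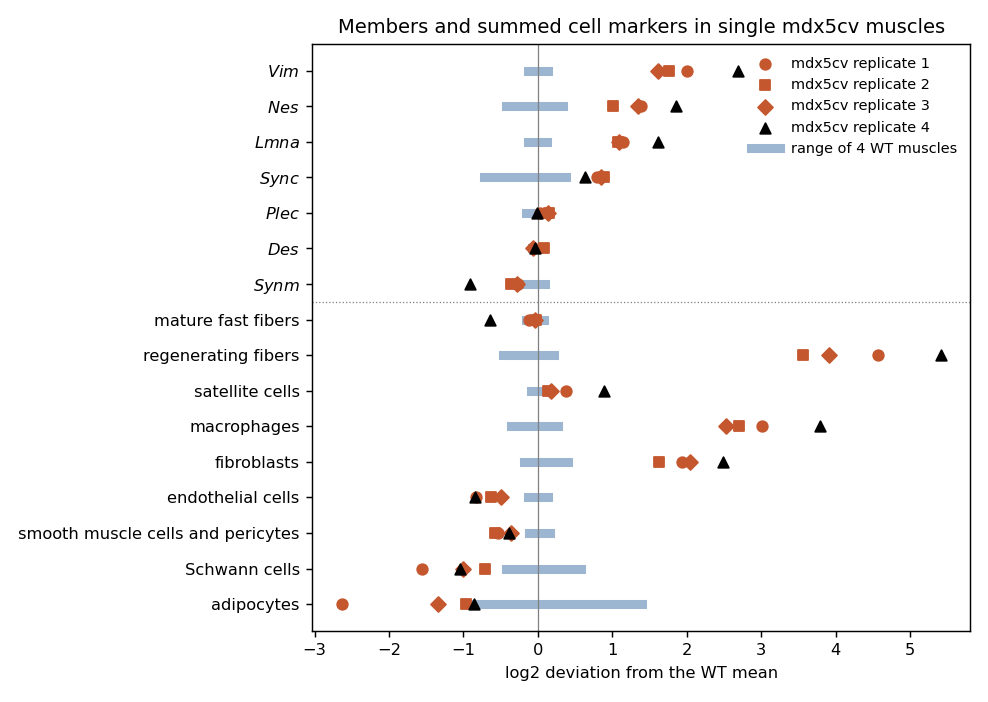
Log2 deviation from the WT mean of each member (top) and of the summed markers of each cell type (bottom) in single mdx5cv muscles, with the range of the 4 WT muscles as bars. Replicate 4 (black triangles) has the highest *Vim*, *Nes* and *Lmna*, the lowest *Synm*, and also the highest regenerating fiber and macrophage sums and the lowest mature fast fiber sum.

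Most other filament genes had few reads. Of 17 other intermediate filament genes, 3 had enough reads to be tested. *Lmnb2*, which encodes lamin B2, was the 1 called, with 30.7 to 48.6 normalized counts in WT and 58.5 to 133 in mdx5cv (log2 fold change 1.05, SE 0.25, limma adjusted p = 0.00453). Of 6 other plakins, the linker family of plectin, 4 were tested and 2 were higher. Among all genes tested, 20.9% were higher, the share to set beside both lists. *Macf1*, a microtubule and actin crosslinker, ran from 3018 to 3401 in WT and from 5075 to 7333 in mdx5cv (log2 fold change 0.86, SE 0.12, limma adjusted p = 0.000136). *Eppk1* (epiplakin) had 2 to 40 reads (log2 fold change 2.01, limma adjusted p = 0.00159). It averaged 4.16 normalized counts in WT and 19.7 in mdx5cv, so it passed the filter only through the mdx5cv muscles. *Macf1* kept its call under all 18 alternative settings, while *Eppk1* was too low to be tested without mdx5cv replicate 4, which left 1 plakin called higher.

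The 19 genes of desmin and costamere partners had a median log2 fold change of 0.01, like the 0.00 of all genes tested. In this list 3 were higher, 2 were lower and 14 were not called. The higher genes belong to integrin adhesions: *Itgb1* (beta 1 integrin) rose by 0.60, *Vcl* (vinculin) by 0.54 and *Tln1* (talin 1) by 0.44, with adjusted p = 0.00122, 0.00311 and 0.0129 from limma. The lower genes were *Myot* (myotilin, a Z-disc protein), which fell by 0.94 (limma adjusted p = 0.000294), and *Dmd*. *Myot* ran from 9661 to 14656 normalized counts in WT and from 5378 to 7512 in mdx5cv. A share of 3 in 19 higher and 2 in 19 lower is no larger than the background of all genes.

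Of 17 partners of the lamina at the nuclear envelope, 3 were higher, 3 were lower and 11 were not called, with a median log2 fold change of -0.09. Neither share is above the 20.9% higher and 20.1% lower of all genes tested. *Syne3* (nesprin 3, which binds plectin at the outer nuclear membrane) rose by 0.75 (limma adjusted p = 0.00619), *Tmem43* by 0.57 (adjusted p = 0.00103) and *Sun1* by 0.29 (adjusted p = 0.0207). *Lbr* (lamin B receptor) fell by 0.46 (adjusted p = 0.00356), *Fnta*, a subunit of the enzyme that farnesylates prelamin A, by 0.41 (adjusted p = 0.00492), and *Syne2* (nesprin 2) by 0.33 (adjusted p = 0.00960). The falls depended on the scaling: under equal totals *Lbr* was at -0.10, *Fnta* at -0.05 and *Syne2* at 0.030, none of them called. These changes were smaller than the 1.23 of *Lmna*.

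The genes most like each member were found by the root mean square distance between log2 deviations from the WT mean over the 8 muscles, among the 7634 genes that averaged 100 or more normalized counts. They share group and library with the member, so the distances are a description. For *Vim* they were *Adcy7* (0.0786) and *Myo5a* (0.127). For *Lmna* they were *Rab3il1* (0.0651) and *Scpep1* (0.0914), and for *Nes* *Chd3* (0.104) and *Myod1* (0.114), the gene of the myogenic factor MyoD. *Cpe* (0.136) was near to *Sync*, and *Synm* was nearest to *Rfk* (0.0659) and *Rps6ka2* (0.0666). The flat genes were nearest to *Ppp1r13b* (0.0310) and *Zfp955b* (0.0363) for *Des* and to *Pard3* (0.0341) and *Ankrd11* (0.0484) for *Plec*.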

How the data were processed

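RNA of 8 TA muscles (4 WT, 4 mdx5cv) was sequenced from stranded total RNA libraries. The values the authors deposited are a signal: the reads of a gene over the size factor of its sample. Per the labels, the submitters' processing notes name FastQC, Trim Galore 0.6.4, STAR 2.6.0c, SAMtools 1.9, featureCounts, MultiQC 1.6, DESeq2 1.26.0, R 3.6.2 and mm10, with no role or order. The annotation release and the strand setting of the counting are not given in the sources used here. Whole reads were recovered for 100% of values (tolerance 1e-06), and the size factors equalled recomputed median-of-ratios factors. Depth was 13175524 to 14921057 reads. Replicates differed by more than sampling noise (chi-square per degree of freedom 8.59 to 38.4), and each was counted once.

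The main test was limma 3.58.1 (R 4.3.3; lmFit, eBayes with a variance trend, two-sided, no covariate) of log2(normalized count + 1) over genes averaging 10 or more normalized counts, with Benjamini-Hochberg adjustment. Fold changes on this scale understate those of low genes. Log2 ratios were compared with an exact permutation test in Python 3.11.15 with scipy 1.17.1. The alternatives were pseudocounts of 0.1 and 10, no filter, a minimum of 10 in each muscle, equal totals, TMM factors, no variance trend, edgeR 4.0.16 (quasi-likelihood) and DESeq2 1.42.0 on recovered reads, leaving out each replicate, blocking on replicate number, a minimum absolute log2 fold change of 1 and transcript length. On simulated data in which 200 genes had a log2 change of 2, limma recovered 95.5% over 13669 genes with 0 unchanged genes called. A gene counted there only if its log2 change also reached 1 in size, a stricter rule than that of the reported calls. False calls under the adjusted p alone were not measured.

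Members and lists were chosen with earlier results of these data known. Genes named are the members, *Dmd*, up to 3 called genes with the highest and 3 with the lowest fold change of each partner list, the 2 genes most like each member (except 1 that is not reported here), and of each marker list the most abundant gene and genes without reads in a group. Called mature fast fiber genes, *Pax7*, *Mymk*, *Chrng*, *Itgam*, *Lep*, *Krt18*, *Krt8*, *Dst* and genes overlapping a member were named after their values were seen. All 7 member IDs matched GENCODE M21 with their version. Promoters are from RefSeq.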

Additional observations from a re-analysis of the deposited data

Results flagged for a closer look

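Of 60 sets of 4 muscles examined with Dixon's test, 4 held a sample far from the others, where chance alone flags about 1 in 20, that is 3. All 4 were mdx5cv replicate 4. On the log2 scale *Synm* was 12.28 there, against 12.83 to 12.93 in the other 3 mdx5cv muscles. *Lmna* was 10.71, against 10.17 to 10.23, and *Tln1* was 11.69, against 11.27 to 11.32. The summed mature fast fiber markers were 19.51, against 20.05 to 20.14. The directions of *Synm* and *Lmna* were the same without this muscle, and both stayed past the test.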

How the results depend on the processing

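Calls of *Vim*, *Nes*, *Lmna* and *Sync* held under all 18 settings that kept the threshold, edgeR and DESeq2 among them, and the count of members called higher was 4 except for 6 under equal totals and 3 with a minimum absolute log2 fold change of 1, which *Sync* does not reach. The count of members called lower, 1 as reported, was 0 under equal totals, without a variance trend and with that minimum, and 0 to 1 on leaving out a replicate. Equal totals reversed *Des* (0.34) and *Syne2* (0.030) and gave 19 partner genes higher and 2 lower in place of 9 and 5, and 7 marker genes lower in place of 15. Leaving out a replicate gave 5 to 8 partner genes lower, with 8 without WT replicate 2. The cause was not tested. Of the 21 pairs, 13 to 15 passed over the alternatives, with no change of sign among those that passed. *Sun1* lost its call on leaving out WT replicate 3 or mdx5cv replicate 1 or 3 (adjusted p = 0.0666, 0.055 and 0.055 from limma). The labels do not say whether replicate numbers pair the samples, and so few muscles cannot settle it. Deviations of same-numbered muscles correlated at 0.05, 0.03, 0.07 and 0.15, and 2 of 4 correlated best with their own number. With the replicate block limma called 2880 genes higher and 2736 lower, against 2854 and 2743 without it, and again 4 members higher and 1 lower. Depth limits mainly the low genes: *Eppk1* had at most 40 reads, and 14 of 17 other filament genes were too low to test.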

Other observations

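Keratin genes of simple epithelia, which belong to the same filament family, were near the limit of detection. *Krt18* had 0 to 3.44 normalized counts in WT and 3.77 to 19.98 in mdx5cv, and *Krt8*, which pairs with it in filaments, had 0 to 2.21 and 0 to 8.10. Both had a mean under 10, so the main test left them out, and both were chosen after their values were seen. Under the 2 settings that tested them, *Krt18* was called higher in both (log2 fold change 2.34 to 3.05, adjusted p = 0.00398 to 0.00505) and *Krt8* in neither (adjusted p = 0.0565 to 0.0917), with no filter in limma and with DESeq2. *Dst*, the most abundant of the other plakins, was, like *Plec*, not called (log2 fold change -0.09, standard error 0.13, adjusted p = 0.623 from limma), and 20142 to 23207 normalized counts in WT stood against 17487 to 21500 in mdx5cv, with mdx5cv replicate 4 the lowest.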
